A study of Mus musculus with 20 samples.

Results

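The genes described here encode the subunits of the 5 enzyme complexes of oxidative phosphorylation, measured by RNA sequencing of mouse brain. Members were the protein-coding genes of the deposited count table whose symbols follow the naming of these subunits (Ndufa, Ndufb, Ndufc, Ndufs or Ndufv with a number, Sdha to Sdhd, Uqcr, Cox4i1, Cox5 to Cox8, Atp5, and the mitochondrial mt-Nd, mt-Co, mt-Atp and mt-Cytb). This gave 97 of 54532 genes, of which 84 are encoded in the nucleus and 13 in the mitochondrial genome. The choice by name also took in genes that are not core parts of the complex their symbol points to: Cox7a2l is known as a factor of supercomplex assembly, and Ndufa4 is now placed in complex IV by several sources, although it is grouped here with complex I by its symbol. The study compared 4 genotypes with 5 libraries each, 20 in all: wild-type controls (WT), mice lacking Glb1 (Glb1KO), mice lacking Neu3 (Neu3KO) and mice lacking both (DKO). Glb1 encodes the acid beta-galactosidase of the lysosome, whose loss leads to storage of GM1 ganglioside, and Neu3 encodes a sialidase of the cell surface that trims gangliosides. Age, sex and strain are not given in the sources used here, and the only word on the origin of the animals is that healthy mice came from a commercial breeder. Each library was made from poly(A)-selected RNA of a single brain hemisphere, so a lower level can mean fewer cells of a kind or less RNA per cell, and these cannot be told apart.

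Oxidative phosphorylation passes electrons from NADH (complex I, the Nduf genes) or succinate (complex II, the Sdh genes) through complex III (Uqcr) to oxygen at complex IV (Cox), and the proton gradient built on the way drives ATP synthase (complex V, Atp5). Complex II is encoded wholly in the nucleus, whereas each of the other complexes combines nuclear-encoded subunits with a core made inside the mitochondrion from its own genome. Neurons depend heavily on this pathway to fuel ion pumping and synaptic transmission.

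Total counts per library ran from 15162311 to 25145806, and 94 members were tested, 81 of them nuclear-encoded. Cox7b2 (82 reads in all), Cox8c (0 reads) and a second gene model named Atp5o (0 reads) were too low to test. For the 2 members without reads, 0 of 356400730 counts over the 20 libraries allows a level of at most 0.00842 in counts-per-million units (CPM), from a floor of 3 counts that covers counting error only. Neuronal RNA was abundant, as the labelled tissue has it: the 19 neuron markers summed to between 8729 and 10970 CPM in each library and the 11 muscle markers to between 15.4 and 25.8 CPM. Glb1 was at 20.2 ± 1.32 CPM in WT and 3.38 ± 0.903 CPM in Glb1KO, while Neu3 was low in every group, at 3.85 ± 1.22 CPM in WT and 2.86 ± 0.409 CPM in Neu3KO (SD, n = 5 each), so gene-level counts bear on the Glb1 labels and only weakly on the Neu3 labels. The labels give each library an identifier whose first letter is E throughout WT. In Glb1KO it is E for 2 and L for 3 libraries, in Neu3KO E for 1 and W for 4, and in DKO E for 2 and W for 3, with no word on what these letters mean. Separate animals are not stated either, so p-values measure the spread between these libraries, which may be partly technical.

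One library stood apart, and results against WT are given with and without it where it matters. In WT replicate 1, mitochondrially encoded subunits took 2.08% of the counts, against 3.26 to 3.63% in the other 4 WT libraries, and nuclear-encoded subunits took 0.675%, against 0.786 to 0.847%. The same library held less RNA of cytosolic ribosomal proteins (0.601% of counts, against 0.774 to 0.895%) and more nuclear-retained RNA (0.941%, against 0.496 to 0.607%).

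The members were expressed over a wide range, and the mitochondrially encoded ones fell into separate bands. Levels between genes are compared here as CPM divided by the deposited gene length in kilobases (CPM per kilobase), averaged over WT. Of nuclear-encoded members, the highest in each complex were Ndufa4 (complex I by symbol, 94.1), Sdha, the flavoprotein of complex II (91.0), Uqcr10, a small subunit of complex III (95.7), Cox8a, a small subunit of complex IV (363), and Atp5a1, the alpha subunit of the ATP synthase head (263). Several nuclear-encoded subunits exist as tissue isoforms, and in these libraries the widely expressed form predominated. Cox6a1 was at 308 CPM per kilobase and the heart and muscle form Cox6a2 at 5.43, Cox7a2 at 88.1 and the muscle form Cox7a1 at 2.23, and Cox8a stood above Cox8b at 1.32. Likewise Cox6b1 was at 136 and the testis form Cox6b2 at 2.42, Cox7b at 55.4 and Cox7b2 at 0.633, and Ndufa4 stood above Ndufa4l2 at 1.65. The c ring of ATP synthase is encoded by Atp5g1, Atp5g2 and Atp5g3, which make the same mature protein, and these were at 17.6, 26.4 and 69.9 CPM per kilobase. Such rankings depend on the deposited gene length. In CPM without that division, Atp5g1 (mean 86.4 in WT) stood above Atp5g2 (35.5 to 49.9 over the WT libraries). Likewise Atp5b (mean 961) stood above Atp5a1 (mean 823).

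Mitochondrially encoded mRNAs were highest for mt-Co1, the catalytic subunit of complex IV, at 8644 CPM per kilobase in WT. After it came mt-Cytb of complex III (4289) and the complex I genes mt-Nd1 (3752), mt-Nd2 (2734), mt-Nd4 (2131), mt-Nd5 (1799) and mt-Nd6 (1760.2). The values of mt-Nd5 and mt-Nd6 lay close together, and their annotated bodies overlap by 14 bases on opposite strands. Strand settings are not given, so reads counted on mt-Nd6 may include RNA of the opposite strand. A gap followed, below which lay mt-Co2 (205), mt-Nd3 (109.7), mt-Co3 (100.3), mt-Atp6 (94.8) and mt-Nd4l (62.6), with mt-Atp8 lowest at 3.77. These 5 genes between the gap and mt-Atp8 are the ones with annotated copies of over 90% of their length in a single nuclear stretch. Only annotated genes there were compared. The gene mt-Atp8 overlaps mt-Atp6 by 43 bases, and the copy of mt-Atp6 covers 99.56% of that gene. Whether the remainder of mt-Atp8 is also copied there was not tested. A run of pseudogenes on GRCm38 chromosome 1, from 24611535 to 24616197, holds copies of mt-Atp6, mt-Co2, mt-Co3 and mt-Nd4l without any difference over the aligned bases, and of mt-Nd3 with 1 difference. The sequences below show why reads of these genes cannot be assigned with certainty: 60 bases from within mt-Co2 (positions 61 to 120) beside its copy Gm28661, which are the same, and the first 60 bases of mt-Nd3 beside its copy Gm28438, where capitals mark the only difference in the aligned 345 bases, T3C counted from the first base of mt-Nd3.
mt-Co2: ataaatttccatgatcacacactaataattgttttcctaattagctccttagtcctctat
Gm28661: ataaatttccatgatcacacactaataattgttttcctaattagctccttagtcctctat
mt-Nd3: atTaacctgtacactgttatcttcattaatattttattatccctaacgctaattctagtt
Gm28438: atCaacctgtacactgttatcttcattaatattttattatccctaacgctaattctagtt

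The copies drew reads of their own in the deposited table. Over the 20 libraries Gm28661 held 38849 reads and mt-Co2 54100, Gm10925 held 13993 and mt-Atp6 25783, Gm28437 held 10434 and mt-Co3 30967, Gm10222 held 2253 and mt-Nd4l 7304, and Gm28438 held 834 and mt-Nd3 13387. By contrast mt-Co1, copied over 31.8% of its length with 6 differences, held 4967318 reads and its copy Gm29216 7482, and mt-Nd4, copied without difference over 63.6%, held 1116508 and its copy Gm28439 6903. How the authors treated reads with several matches is not given in the sources used here, so the levels of these 5 genes are uncertain, and their part in the gap was not tested. Adding the reads of all 7 copies, a step chosen after the data were seen, moved the mitochondrially encoded share of counts in WT from 3.18 to 3.20%. That step cannot recover reads that were left out for matching both places. It therefore does not show how far the copies affect the share, and the shares given below may be too low.

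**Figure D1:**
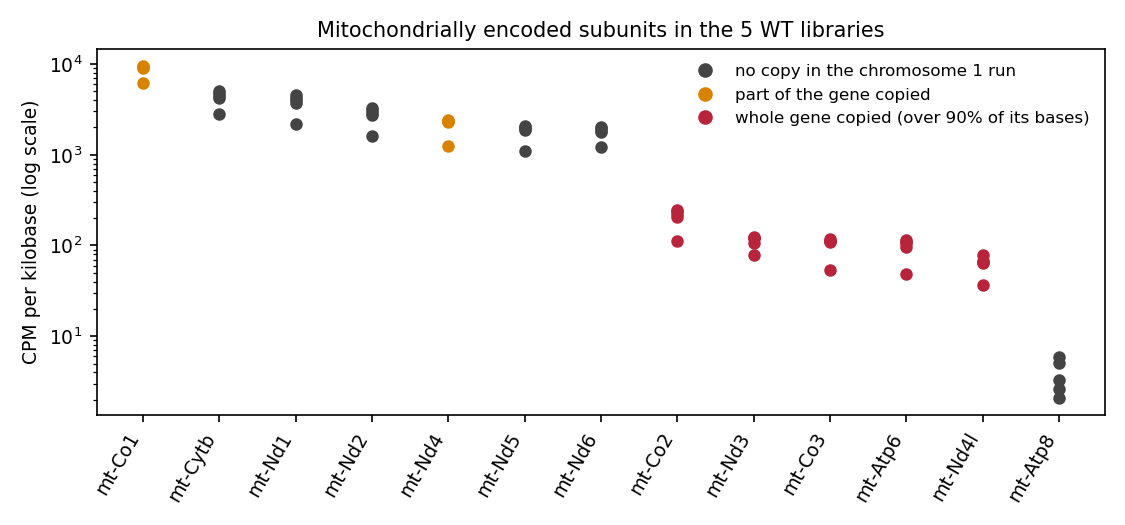
Each point is 1 of the 5 WT libraries, and the vertical log axis gives CPM per kilobase for each mitochondrially encoded gene. The 5 genes with an annotated chromosome 1 copy of over 90% of their length (red) sit below all others except mt-Atp8. An unannotated copy of mt-Atp8 was not looked for. The lowest point of every gene is WT replicate 1.

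As a share of all counts, mitochondrially encoded subunits had a higher mean in both single knockouts than in WT and DKO, with overlap between the groups. In replicate order, the share was 2.08, 3.63, 3.26, 3.42 and 3.52% in WT, and 3.88, 4.04, 3.64, 3.24 and 3.89% in Glb1KO. The same share was 3.47, 3.42, 3.70, 4.30 and 3.81% in Neu3KO, and 3.71, 3.46, 3.41, 3.05 and 2.75% in DKO. Means were 3.18 ± 0.629% in WT, 3.74 ± 0.314% in Glb1KO, 3.74 ± 0.352% in Neu3KO and 3.28 ± 0.377% in DKO (SD, n = 5 each), and without replicate 1 the WT mean was 3.46 ± 0.159%. Within DKO, the 3 libraries with identifiers starting with W held the lowest shares, from 2.75 to 3.41%, and within Neu3KO the 4 W libraries ran from 3.42 to 4.30%.

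Nuclear-encoded subunits together held less of the counts. Their share of counts was 0.779 ± 0.0631% in WT, 0.836 ± 0.0246% in Glb1KO, 0.796 ± 0.0404% in Neu3KO and 0.823 ± 0.0284% in DKO (SD, n = 5 each), with overlap between all groups. Cytosolic ribosomal protein genes, counted in the same libraries, took 0.775 ± 0.108% in WT and 1.03 ± 0.0621% in DKO.

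**Figure D2:**
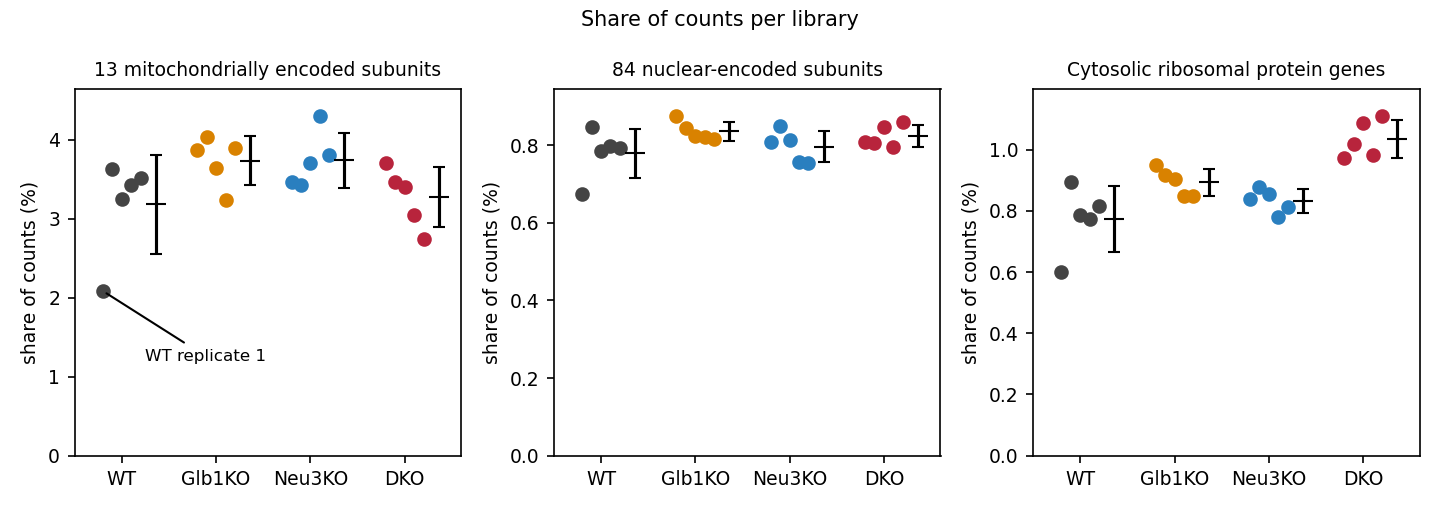
Each point is a library and each bar the mean and SD of 5 libraries; the vertical axes give the percentage of all counts in mitochondrially encoded subunits, nuclear-encoded subunits and cytosolic ribosomal protein genes. WT replicate 1 is lowest of the WT libraries in all 3 panels, and the DKO libraries lie above WT only in the ribosomal protein panel, where they run from 0.973 to 1.11%.

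DKO was compared with WT, the contrast for which the authors also deposited their own test. Few subunits changed and the changes were small: 11 nuclear-encoded members were higher and 3 lower among the 81 tested, and none of the 13 mitochondrially encoded members passed. A change was called at an adjusted p under 0.05 in edgeR's quasi-likelihood test over all genes. The called share of nuclear-encoded members, 17.3%, was below the 29.0% called among all 18336 genes tested (14.0% higher and 15.1% lower). Their median log2 fold change was 0.07, against -0.0032 over all genes, and 73 of the 81 lay within 0.25 of 0 on the log2 scale. Of all estimates, 60 were above 0 and 21 below. This upward lean rested in part on WT replicate 1. The median over nuclear-encoded members of log2 CPM, less each gene's mean over the 20 libraries, averaged -0.06 in WT and 0.01 in DKO. Without WT replicate 1 the WT average was -0.0053. Libraries of the 2 groups did not overlap for 2 higher and 1 lower nuclear-encoded member, beside 9.28% and 9.35% of all genes.

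In complex I, 5 of 37 nuclear-encoded members rose and 1 fell. Ndufb2 (ENSMUSG00000002416, chromosome 6, from 39592574 to 39603382, GRCm38), an accessory subunit of the membrane arm, was the one that fell. It was at 21.3, 26.0, 25.1, 21.6 and 24.7 CPM in WT replicates 1 to 5 and at 20.7, 17.4, 19.3, 19.1 and 17.1 CPM in DKO. Every DKO library lay below every WT library, and the change was -0.34 on the log2 scale (SE 0.09, edgeR adjusted p = 0.00252), a level 0.788 times that of WT. The Glb1KO libraries were at 21.1, 26.5, 23.6, 21.4 and 23.7 CPM and the Neu3KO libraries at 22.6, 21.1, 21.4, 25.8 and 25.1 CPM, and both overlapped WT. Ndufb2 was also lower in DKO than in Glb1KO, with a change of -0.31 (edgeR adjusted p = 0.0103), and than in Neu3KO, with -0.31 (edgeR adjusted p = 0.00747), again without overlap.

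Among the complex I members that rose, Ndufv3 belongs to the module that takes up NADH, and Ndufb9, Ndufc2 and Ndufb7 to the membrane arm. Ndufb9 was at 32.8, 44.4, 33.5, 35.4 and 37.6 CPM in WT and 45.5, 38.9, 46.2, 42.6 and 52.6 CPM in DKO, a change of 0.30 on the log2 scale (SE 0.08, edgeR adjusted p = 0.00676). Ndufv3 was at 32.3, 36.0, 37.5, 41.5 and 38.0 CPM in WT and 40.2, 41.8, 46.5, 44.1 and 50.6 CPM in DKO (0.27 on the log2 scale, SE 0.08, edgeR adjusted p = 0.00662). In each gene 1 WT library reached into the DKO range, replicate 2 for Ndufb9 and replicate 4 for Ndufv3. Ndufc2 was at 0.25 (SE 0.08). It lies 2.416 megabases from Neu3 on chromosome 7, and whether that position bears on its value was not tested. Ndufb7 was at 0.22 (SE 0.07). Ndufa3, named here after its values were seen, was at 0.30 (SE 0.10) and lost its call without WT replicate 1, where it was at 0.25.

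Of the 4 complex II genes, Sdhb, the iron-sulfur subunit, rose, and of the 8 complex III genes none passed, the estimates running from -0.05 to 0.18. Sdhb was at 68.2, 87.0, 94.2, 91.2 and 84.8 CPM in WT and 90.7, 92.0, 99.2, 98.7 and 101 CPM in DKO, a change of 0.18 on the log2 scale (SE 0.06, edgeR adjusted p = 0.029). The groups overlapped in 2 WT libraries, and without WT replicate 1 the change of Sdhb was 0.12 and not called.

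In nuclear-encoded complex IV genes, Cox4i1 and Cox7a2l rose and Cox5a fell among 15 members tested. Cox4i1 and Cox5a encode subunits that join the growing enzyme early. Cox4i1 was at 254, 333, 319, 312 and 308 CPM in WT and 339.9, 333, 374, 325 and 403 CPM in DKO (0.22 on the log2 scale, SE 0.06, edgeR adjusted p = 0.00718). WT replicate 2 lay inside the DKO range and the other WT libraries below it. Cox7a2l was at 57.0, 94.2, 93.7, 93.3 and 89.7 CPM in WT and 104, 102, 107, 98.5 and 106 CPM in DKO, a change of 0.28 on the log2 scale (SE 0.09, edgeR adjusted p = 0.0186). The groups did not overlap, but 1 WT library was far below the rest, and without it the change was 0.17 (edgeR adjusted p = 0.0154). Cox5a was at 68.3, 70.0, 76.6, 77.6 and 74.8 CPM in WT and 71.4, 63.8, 69.3, 61.9 and 64.5 CPM in DKO, where its change of -0.15 on the log2 scale (SE 0.05, edgeR adjusted p = 0.0373) came with overlapping groups. It was the only member of complex IV called lower.

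ATP synthase held the 2 rises with the smallest adjusted p of all members. Atp5g2 (ENSMUSG00000062683, chromosome 15, from 102662864 to 102672352, GRCm38), which encodes the proton-carrying c subunit, was at 35.5, 44.9, 43.3, 49.9 and 47.1 CPM in WT and 55.4, 55.4, 60.1, 51.3 and 58.7 CPM in DKO. No WT library reached the lowest DKO library, and the change was 0.35 on the log2 scale (SE 0.07, edgeR adjusted p = 0.000388), or 1.27-fold. The other genes for the same protein did not pass: Atp5g1 was at -0.14 (edgeR adjusted p = 0.0639) and Atp5g3 at 0.05 (edgeR adjusted p = 0.579). Atp5mpl, a small subunit that accompanies the membrane part, was at 30.2, 44.3, 30.02, 31.0 and 35.4 CPM in WT and 44.9, 44.0, 44.5, 40.6 and 41.4 CPM in DKO (0.33 on the log2 scale, SE 0.09, edgeR adjusted p = 0.00388). WT replicate 2 alone lay among the DKO libraries. Atp5l, the g subunit, rose by 0.24 (edgeR adjusted p = 0.0422), with overlap, since WT replicate 2 was at 80.0 CPM and the other WT libraries between 51.6 and 57.3 CPM. Without WT replicate 1 the change of Atp5l was 0.19 (edgeR adjusted p = 0.116) and not called. Atp5b, the catalytic beta subunit, was at 849, 1033, 976, 995 and 953 CPM in WT and 875, 885, 886, 857 and 915 CPM in DKO and fell by 0.12 on the log2 scale (SE 0.05, edgeR adjusted p = 0.0433). That small fall passed the threshold narrowly and with overlapping groups.

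**Figure D3:**
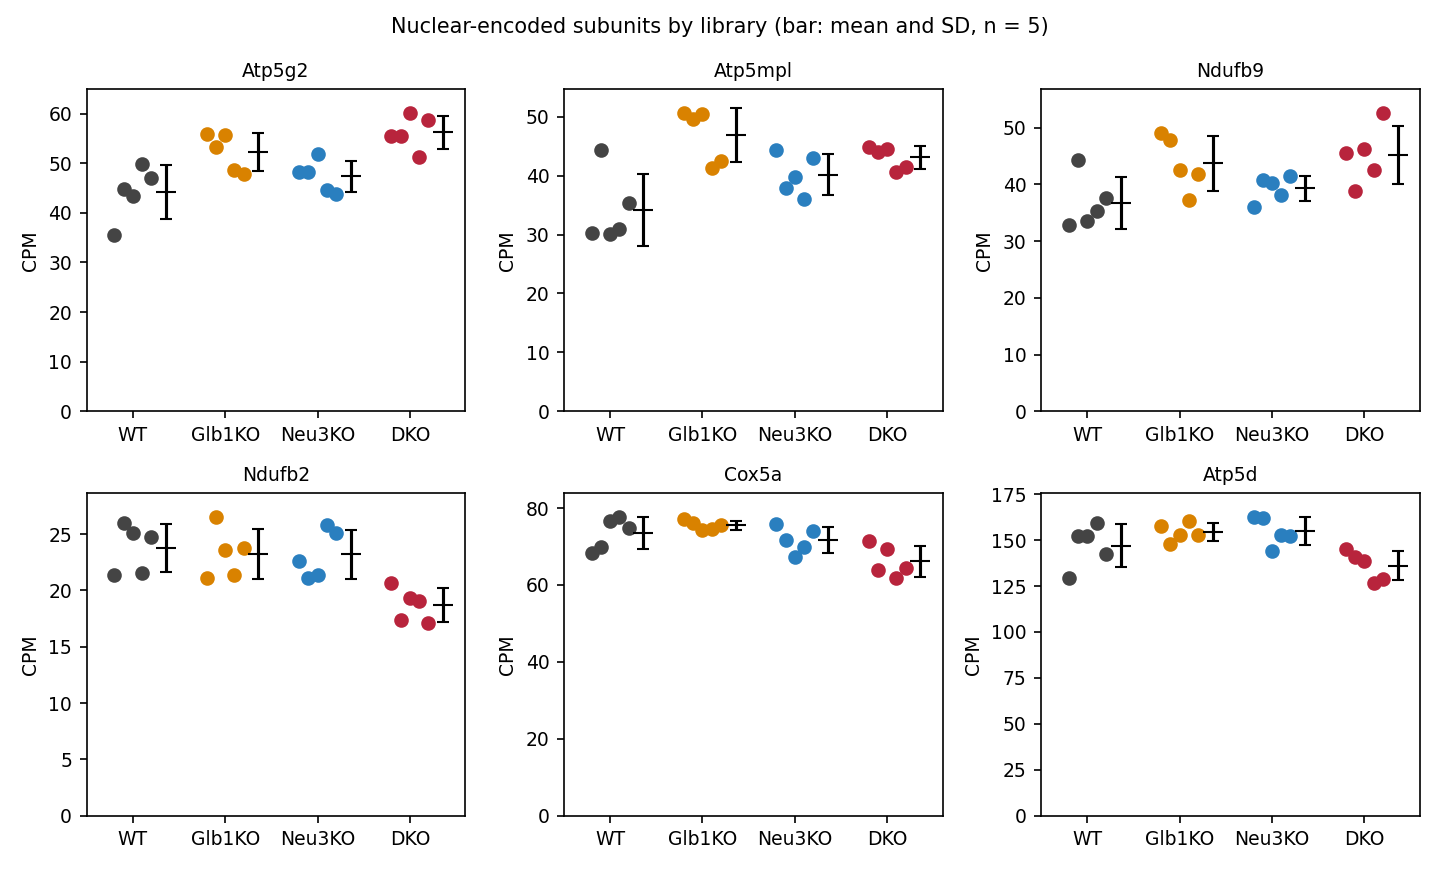
TMM-scaled CPM of 6 nuclear-encoded subunits are shown for each library (points) with the mean and SD of each genotype (bars, n = 5), on axes that start at 0. Atp5g2 is higher and Ndufb2 lower in all 5 DKO libraries than in any WT library, and Atp5mpl is raised in Glb1KO as well as DKO.

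Sequence around the start site is shown for Atp5g2 and Ndufb2, 2 of the non-overlapping changes, from RefSeq on GRCm38.p6. Each stretch runs from 130 bases before to 20 bases after the annotated start. Cox7a2l, the other non-overlapping rise, held none of the motifs searched in the same stretch and is not printed. Capitals in Atp5g2 (chr15:102671028-102671177, minus strand) mark the motif of the nuclear respiratory factor NRF1 (GCGCA, any base, then GCGC), a textbook regulator of these genes. Ndufb2 (chr6:39592435-39592584, plus strand) holds none of the motifs searched in this stretch. In the deposited coordinates Atp5g2 begins upstream of its printed stretch, so the start used here is not that of the counted gene.
Atp5g2: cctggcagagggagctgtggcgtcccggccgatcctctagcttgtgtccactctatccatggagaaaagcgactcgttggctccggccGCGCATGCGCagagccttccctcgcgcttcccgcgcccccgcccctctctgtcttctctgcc
Ndufb2: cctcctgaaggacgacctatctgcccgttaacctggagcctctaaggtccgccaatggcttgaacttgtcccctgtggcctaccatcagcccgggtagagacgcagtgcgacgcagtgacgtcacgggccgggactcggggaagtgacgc

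Across the 68 nuclear-encoded members with a RefSeq promoter, out of 84, the NRF1 motif was found on either strand in 17 (1254 of 17492 protein-coding genes, 7.17%, also held it), within 250 bases before to 50 bases after the start. The YY1 motif AAGATGGC was in 14.7%, against 3.57%, and the ETS-type motif CCGGAAG, a core of sites bound by NRF2 (GABP), was in 23.5%, against 12.9%. The median GC content of these windows was 57.8% for the members and 56.3% for all genes. By complex, the NRF1 motif was found in 6 of 15 ATP synthase genes, 7 of 32 of complex I and 1 of 13 of complex IV. Sdha and Ndufb4 each held 3 matches. These are matches of letters, not measured binding, and members with and without the motif were among those that rose.

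The changes were tied unevenly to single libraries and to the identifier letter. Without WT replicate 1, 8 nuclear-encoded members were higher and 6 lower, along with mt-Nd2, and 11 of the 14 calls were shared, beside 26.1% of all genes called in that fit. The new lower ones were Atp5d (-0.15, edgeR adjusted p = 0.0315), Ndufa10 (-0.14, edgeR adjusted p = 0.0381) and Ndufb5 (-0.14, edgeR adjusted p = 0.0365), the last named after its values were seen. With the identifier letter as a term 4 of the 14 calls remained (Atp5g2, Atp5mpl, Ndufb7 and Ndufb2), beside 18.3% of all genes called in that fit, and among libraries starting with E, of which DKO had 2, only Atp5g2 and Atp5mpl did, beside 12.9%. Without WT replicate 2 the higher calls numbered 20, beside 27.5% of all genes called in either direction, and without DKO replicate 5 they numbered 7, beside 25.3%. In the authors' deposited table of this comparison, which gives an adjusted p, 9 nuclear-encoded members were higher and 1 lower, all 10 of them called here in the same direction; the authors' deposited table also called mt-Nd6 higher, with a log2 fold change of 0.26.

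None of the mitochondrially encoded subunits passed the test between DKO and WT, and their direction rested on 1 library. With all 5 WT libraries the 13 estimates ran from -0.23 (mt-Nd2) to 0.26 (mt-Nd6), with a median of 0.004, 0 at an unadjusted p under 0.05 and 0 called by DESeq2. The interval of each was wide: for mt-Co1 the change was -0.06 with a 95% interval from -0.27 to 0.15, and for mt-Cytb 0.06, from -0.21 to 0.32. Leaving out WT replicate 1 moved the median to -0.13, and mt-Nd2 was then called lower at -0.36 (edgeR adjusted p = 0.0421). This gene was at 1669.9, 3434, 2869, 2962 and 3256 CPM in WT and 2974, 2717, 2435, 2157 and 1848 CPM in DKO. Among libraries with the letter E the median was 0.20 and none was called, so neither direction held across these settings. The 2 members with the largest positive estimates were those encoded at the overlap of opposite strands, mt-Nd5 at 0.22 and mt-Nd6 at 0.26, and neither passed.

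**Figure D4:**
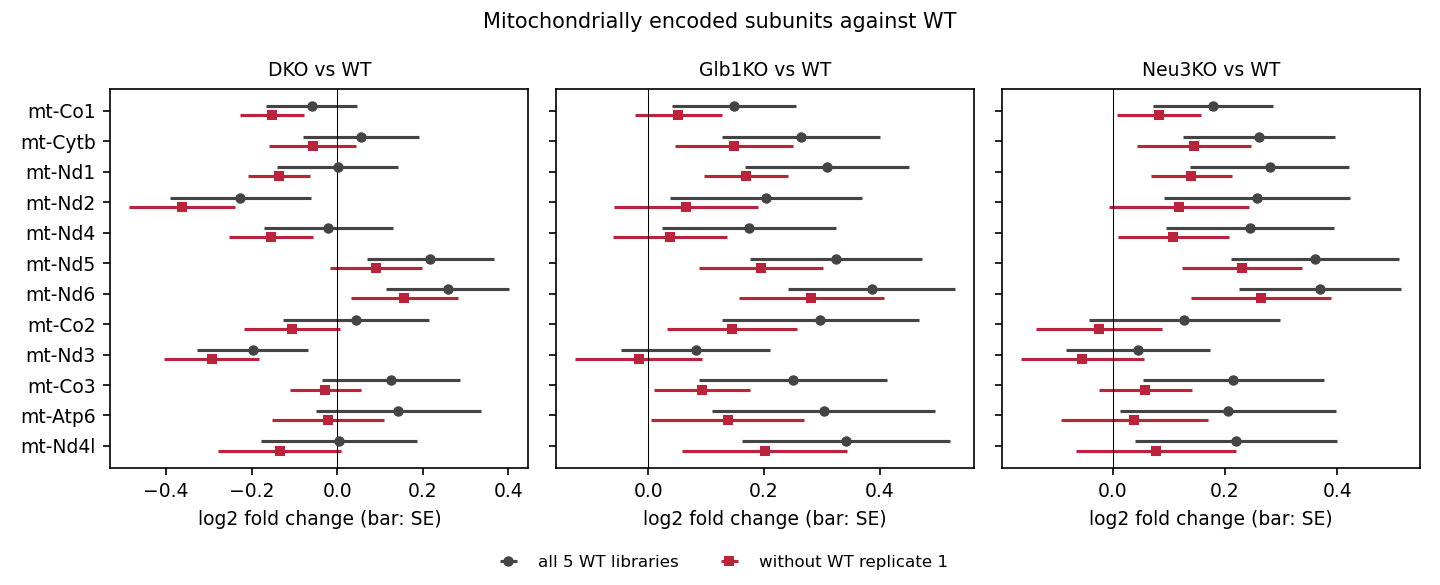
Points give the log2 fold change of 12 mitochondrially encoded subunits against WT in each knockout, with bars for the SE, from all WT libraries (grey) and without WT replicate 1 (red); mt-Atp8, with 0.770 CPM in WT, is left out. In every panel the red points lie to the left of the grey ones, and for DKO mt-Cytb, mt-Nd1, mt-Co2, mt-Co3, mt-Atp6 and mt-Nd4l change from above 0 to below it.

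The proportions among the mitochondrial transcripts were compared next. As a share of all reads on mitochondrially encoded subunits, mt-Nd5 took 9.56 to 10.9% in WT and 11.2 to 12.4% in DKO, with no overlap, and mt-Nd6 took 2.66 to 3.01% in WT and 3.27 to 3.71% in DKO, also with no overlap. In Glb1KO these shares ran from 10.7 to 11.5% and from 2.92 to 3.48%, and in Neu3KO from 10.2 to 11.9% and from 2.78 to 3.47%. The share of mt-Nd2 was 7.92 to 9.35% in WT, 8.58 to 8.90% in Glb1KO, 8.60 to 9.39% in Neu3KO and 6.84 to 8.09% in DKO. Thus the DKO libraries overlapped WT only in replicate 1 of WT and lay below both single knockouts. Shares of mt-Cytb, at 15.2 ± 0.461% in WT and 15.9 ± 0.387% in DKO (SD, n = 5 each), and of mt-Nd4, at 8.26 to 9.51% in WT and 8.72 to 9.47% in DKO, overlapped. These proportions were chosen after their values were seen and are given without a test. With strand settings not given, the shares of mt-Nd5 and mt-Nd6 may not be separate measures.

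Glb1KO was compared with WT for the loss of Glb1 alone. Here 6 nuclear-encoded members rose and none fell, 7.41% of the 81 tested against 3.96% of all genes (1.75% higher and 2.21% lower). Their median log2 fold change was 0.12, against 0.0021 over all genes, and 71 of 81 estimates were above 0. Atp5mpl had the smallest adjusted p of the members, at 50.6, 49.6, 50.4, 41.4 and 42.5 CPM in the Glb1KO libraries (0.46 on the log2 scale, SE 0.09, edgeR adjusted p = 0.000812). WT replicate 2 was the only WT library inside that range. Cox7b, a small subunit of complex IV, was at 61.5, 81.2, 61.2, 63.6 and 68.8 CPM in WT and 92.0, 86.6, 80.2, 76.9 and 75.4 CPM in Glb1KO (0.29 on the log2 scale, SE 0.07, edgeR adjusted p = 0.00804). Its DKO libraries, at 73.3, 69.2, 68.2, 66.7 and 72.4 CPM, lay lower again. Atp5l was at 0.32, Cox6c of complex IV at 0.26, Ndufa5, an accessory subunit of the matrix arm, at 0.26, and Ndufb7 at 0.24. Of these only Ndufb7 showed no overlap with WT, one of 3 nuclear-encoded members without overlap, all higher, beside 5.56% of all genes (2.60% higher and 2.96% lower). The other two, Ndufa13 and Uqcrb, did not pass the test and are named after their values were seen.

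Without WT replicate 1, only Atp5mpl (0.42, edgeR adjusted p = 0.00407) and Cox7b (0.26, edgeR adjusted p = 0.0267) stayed called in Glb1KO, against 3.20% of all genes, and the nuclear-encoded median was 0.07. With the letter as a term or among E libraries none of the 6 was called, beside 1.72% and 1.61% of all genes. Without WT replicate 2, 14 were higher, beside 4.42%. Mitochondrially encoded members had a median of 0.26 and 12 of 13 estimates above 0, with 0 called by edgeR or DESeq2 and 3 at an unadjusted p under 0.05. That median was 0.14 without WT replicate 1.

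Neu3KO was compared with WT for the loss of Neu3 alone, and no member was called by edgeR, as was the case for all 18336 genes (0%). At an unadjusted p under 0.05 there were 4 nuclear-encoded and 2 mitochondrially encoded members. DESeq2 called 0 members, and edgeR called 1 when no low-count filter was used. In every member the libraries of the 2 groups overlapped, beside 1.18% of all genes without overlap (0.524% higher and 0.660% lower). The nuclear-encoded median was 0.05 and the mitochondrially encoded median 0.22, which became 0.0017 and 0.08 without WT replicate 1. Atp5mpl, at 44.3, 37.8, 39.7, 36.0 and 42.9 CPM, was at 0.23 with a 95% interval from 0.06 to 0.41 (edgeR adjusted p = 0.767). These 3 comparisons use the same WT libraries, so their estimates are not independent.

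**Figure D5:**
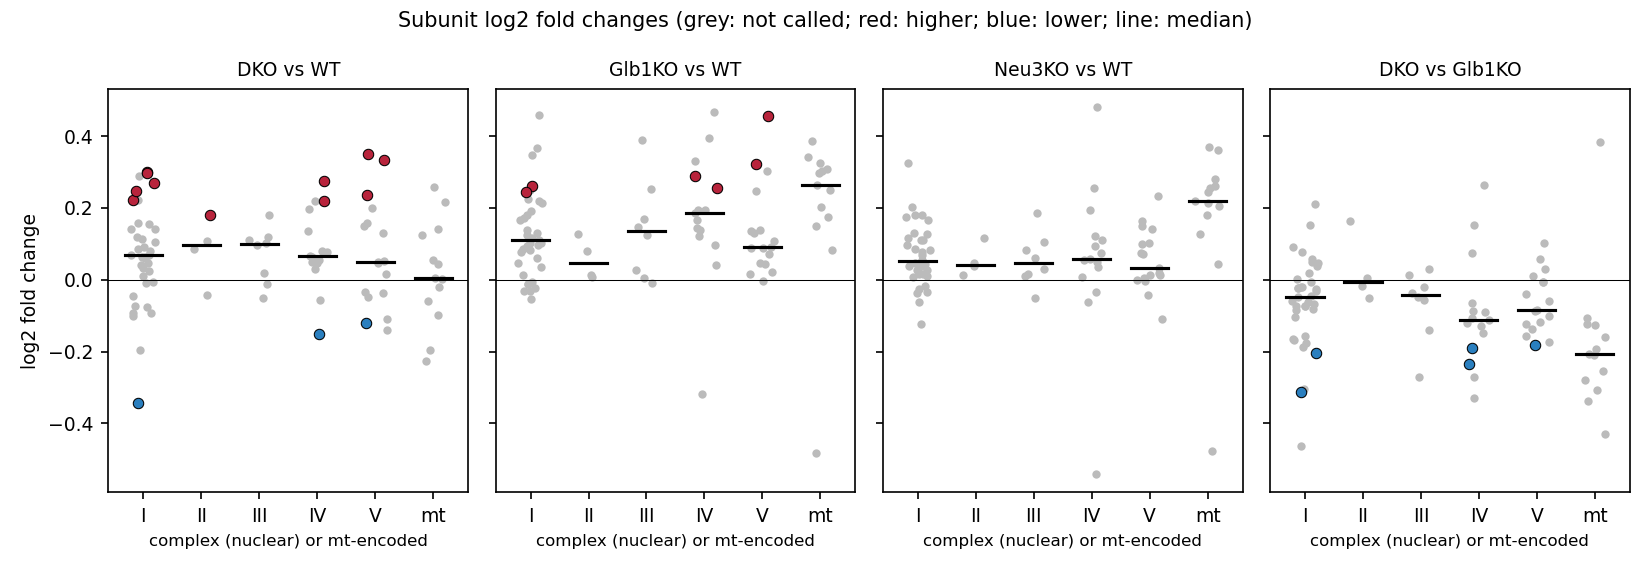
Log2 fold changes of the 94 tested members are shown by complex for nuclear-encoded subunits and together for mitochondrially encoded ones (mt), in 4 comparisons; bars mark medians, and coloured points passed the edgeR threshold. Called members lie above 0 in Glb1KO, on both sides of 0 in DKO against WT and below 0 in DKO against Glb1KO, and the mitochondrially encoded median is 0.26 in Glb1KO and -0.21 in DKO against Glb1KO.

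DKO was compared with Glb1KO, for the loss of Neu3 where Glb1 was already absent. WT libraries enter this comparison through the spread, scaling and low-count filter shared in the fit. Here 5 nuclear-encoded members fell and none rose, 6.17% of 81 against 15.7% of all genes (8.41% higher and 7.29% lower). They were Ndufb2 (above), Ndufa10 and Cox5a, Cox7b and Atp5d. Ndufa10, an accessory subunit of the membrane arm, was at 123, 114, 119, 114 and 118 CPM in Glb1KO and 107, 103, 108, 94.2 and 99.0 CPM in DKO (-0.20 on the log2 scale, SE 0.05, edgeR adjusted p = 0.00742). Atp5d, the delta subunit of the rotating stalk, was at 158, 148, 153, 161 and 153 CPM in Glb1KO and 145, 141, 139, 127 and 129 CPM in DKO (-0.18 on the log2 scale, SE 0.05, edgeR adjusted p = 0.0187). For Cox5a the Glb1KO libraries were at 77.1, 76.1, 74.2, 74.6 and 75.7 CPM and the change was -0.19 on the log2 scale (SE 0.05, edgeR adjusted p = 0.014). Cox7b changed by -0.23 (edgeR adjusted p = 0.0153). In all 5 genes every DKO library was below every Glb1KO library, which held for 9 nuclear-encoded members in the lower direction and 1 in the higher, beside 5.25% and 6.78% of all genes. The nuclear-encoded median was -0.06. Atp5g2 and Atp5mpl did not pass, at 0.10 (95% interval from -0.04 to 0.25) and -0.12 (from -0.29 to 0.05).

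Cell type markers also differed between these groups. Of 19 neuron markers 13 were lower in DKO than in Glb1KO (median -0.21), beside 7.29% of all genes called lower. Their summed level ran from 10230 to 10710 CPM in Glb1KO and from 8729 to 9498 CPM in DKO. Microglia markers summed to between 425.5 and 477.8 CPM in Glb1KO and between 879.1 and 1100 CPM in DKO. Astrocyte markers were higher in 7 of 10 cases (median 0.36), beside 8.41% of all genes called higher. Of 11 endothelial and mural markers 3 were lower and 1 higher. Of 12 oligodendrocyte markers 1 was lower and 3 higher. The part of cell composition in the subunit values was not tested. With the identifier letter as a term none of the 5 falls was called, beside 6.56% of all genes, and Ndufb2 was then at -0.26. With the 2 groups fitted alone, 8 nuclear-encoded members were lower and 3 higher, and 1 mitochondrially encoded member was lower, beside 16.3% of all genes. Without WT replicate 1 the calls also rose from 5 to 13, the first 5 among them: 8 nuclear-encoded members were lower and 3 higher, and 2 mitochondrially encoded ones were lower, beside 17.1% of all genes. Without DKO replicate 4, 3 nuclear-encoded members were lower, beside 13.2%.

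Mitochondrially encoded members had a median of -0.21 in DKO against Glb1KO, with 12 of 13 estimates below 0, none called by edgeR, 3 at an unadjusted p under 0.05 and 1 called by DESeq2. The lowest estimate was that of mt-Nd2, at 3352, 3561, 3196, 2852 and 3382 CPM in Glb1KO, with a change of -0.43 on the log2 scale (SE 0.17, edgeR adjusted p = 0.0945). Restricted to E libraries, 2 per group, the median was 0.02, so the negative median was not seen within that letter.

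Against Neu3KO, DKO had 3 nuclear-encoded members lower and 2 higher, 6.17% of 81 beside 25.1% of all genes (12.3% higher and 12.8% lower). Lower were Ndufb2, Atp5d (-0.19, edgeR adjusted p = 0.0103) and Atp5b (-0.13, edgeR adjusted p = 0.0295); higher were Atp5g2 (0.25, edgeR adjusted p = 0.0116) and Ndufv3 (0.24, edgeR adjusted p = 0.0163). Without WT replicate 1 the called members rose from 6 to 10, all 6 among them, with 3 nuclear-encoded and 4 mitochondrially encoded ones lower and 3 nuclear-encoded ones higher, beside 26.6% of all genes. Higher members numbered 4 without Neu3KO replicate 2 and 1 without Neu3KO replicate 5 or DKO replicate 5. Here mt-Nd2 was the only mitochondrially encoded member called in any of these comparisons in the main edgeR fit of all libraries. It was at 3065, 2975, 3199, 4011 and 3706 CPM in Neu3KO. It was one of 2 mitochondrially and 2 nuclear-encoded members whose libraries were all lower in DKO (7.20% of all genes were lower and 8.43% higher without overlap), with a change of -0.48 on the log2 scale (SE 0.17, edgeR adjusted p = 0.0418). The call rested narrowly on the threshold: it was lost when WT replicate 3 or 4, Glb1KO replicate 1, 3 or 5, Neu3KO replicate 1, 3, 4 or 5, or DKO replicate 3, 4 or 5 was left out, with changes from -0.52 to -0.40. Among E libraries the change was -0.10.

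The interaction of the knockouts (the change from Glb1KO to DKO, from which the change from WT to Neu3KO was subtracted) asked whether losing Neu3 acts differently once Glb1 is gone. It was called for 2 nuclear-encoded members, both lower, 2.47% of 81 against 6.84% of all genes (3.96% higher and 2.88% lower): Cox7b at -0.33 on the log2 scale (SE 0.10, edgeR adjusted p = 0.0325) and Atp5d at -0.26 on the log2 scale (SE 0.08, edgeR adjusted p = 0.036). Losing Neu3 went with 0.08 for Atp5d when Glb1 was present and -0.18 when it was absent. For Cox7b the corresponding values were 0.09 and -0.23. Without WT replicate 1 neither was called, at -0.21 for Atp5d and -0.30 for Cox7b, and mt-Nd1 was the only member called, at -0.44 (edgeR adjusted p = 0.00599), beside 7.11% of all genes. Without WT replicate 2, 8 nuclear-encoded members were lower, beside 6.19%. None was called without Glb1KO replicate 1, Neu3KO replicate 1 or 2, or DKO replicate 3 or 4. With the letter as a term Atp5d was called, at -0.30, and Cox7b was not, at -0.23. Of the 13 mitochondrially encoded members 12 were below 0, with a median of -0.44, none called by edgeR, 7 at an unadjusted p under 0.05 and 3 called by DESeq2. That median was -0.30 without WT replicate 1 and -0.10 among E libraries, of which Neu3KO had 1.

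The genes around the complexes were examined from lists that cover the rest of the pathway, in DKO against WT. Of 47 assembly factors tested, 3 fell and 2 rose (median -0.02), among them Ttc19, a complex III factor, at -0.22 and Timmdc1, a complex I factor, at -0.41 (SE 0.09). Of 7 further complex components only Cycs, the gene for cytochrome c, passed, at -0.23 (SE 0.07). Among 25 genes of mitochondrial transcription and DNA upkeep 2 fell, Elac2 (-0.22) and the polymerase gene Polg (-0.19), and Ssbp1 rose (0.27). Mitochondrial ribosomal proteins had 9 of 77 higher and 2 lower, with Mrps6 at 0.57 and Mrps35 at -0.38. All 4 of these lists had a called share under the 29.0% of all genes.

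Regulators and fuel pathways held single genes with larger changes, while their called counts are to be read beside the same 29.0% of all genes. Of 16 regulators of mitochondrial biogenesis 3 rose and 2 fell: Hif1a, the oxygen-sensing factor, was at 0.55 (SE 0.06), Nfe2l2, the antioxidant regulator, at 0.76 (SE 0.10) and the nuclear receptor Esrrg at -0.28. In the tricarboxylic acid cycle 2 of 18 rose, Idh2 at 0.76 (SE 0.08) and Suclg2 at 0.68 (SE 0.08), and 4 fell, with Dlst at -0.23. Of 23 glycolysis genes 6 rose and 3 fell, including the myeloid hexokinase Hk3 at 2.23 (SE 0.24), the lactate transporter Slc16a1 at 0.70 and the astrocyte aldolase Aldoc at 0.53. Of 34 other genes of mitochondrial membranes and import 5 rose and 3 fell, with the import receptor Tomm20 at 0.39, Acadl at 0.35 and the fusion factor Mfn2 at -0.21. Mitophagy genes rose in 3 of 11 cases: Optn was at 0.73, Pink1 at 0.26 and Sqstm1 at 0.15.

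Markers of several cell types differed in the same libraries. In DKO 10 of 12 microglia markers (median 2.19) and 7 of 10 astrocyte markers (median 0.51) were higher than in WT, and 12 of 12 oligodendrocyte markers (median -0.85) and 9 of 19 neuron markers (median -0.14) were lower. Cytosolic ribosomal protein genes were higher in 66 of 80 cases, with a median of 0.37, which was 0.29 without WT replicate 1, and Rpl37a was at 0.55. Of all genes, 14.0% were called higher and 15.1% lower in DKO against WT. In Glb1KO 9 of these 80 were higher, with a median of 0.19, beside 1.75% of all genes higher and 2.21% lower. There 12 of 12 oligodendrocyte markers were lower (median -0.88) and 8 of 12 microglia markers higher (median 1.02). Also higher in Glb1KO were 2 of 19 neuron and 1 of 10 astrocyte markers. The part of these shifts in the subunit values was not tested.

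Members varied together over the 20 libraries to different degrees. Mitochondrially encoded members other than mt-Atp8 had Pearson r from 0.78 (mt-Atp6) to 0.97 (mt-Nd1) with the median of the others, and mt-Atp8, at 0.770 CPM in WT, had r = -0.07. These values share library depth and genotype and are a description over n = 20 libraries. The median nuclear-encoded and mitochondrially encoded profiles had r = 0.63, and r = 0.03 without WT replicate 1. In WT replicate 1 the mitochondrially encoded median was at -0.84 (log2 CPM less each gene's mean), against -0.07 to 0.11 in the other WT libraries. All r values of single genes in this paragraph include that library and were not computed without it, so they may rest largely on it. The tested genes outside the members whose profile was most like the nuclear-encoded median were Rpl28 (r = 0.90), Cops6 (0.89), Gabarapl1 (0.89), Clpp (0.88) and Slc25a5 (0.88). For the mitochondrially encoded median they were Gm28661 (0.94), the copy of mt-Co2, then Eef1g (0.92), Skp1a (0.91), Serinc1 (0.90) and Vti1b (0.90). Some nuclear-encoded members varied widely within a genotype: Ndufa12, an accessory subunit of the matrix arm singled out after its values were seen, was at 19.9, 50.04, 23.9, 26.6 and 24.3 CPM in WT and 58.3, 44.9, 30.8, 26.2 and 38.9 CPM in Glb1KO. Its SE of 0.31 on the log2 scale in DKO against WT compares with a median SE of 0.07 for nuclear-encoded members.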

How the data were processed

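Poly(A)-selected RNA of a brain hemisphere was sequenced in 20 libraries, 5 per genotype, per the labels' protocols. The authors deposited a table of raw counts per gene, with gene positions and lengths, and their own DKO and WT comparison, with log2 fold changes and p-values per the file headers. Tools in the submitters' processing notes are DESeq2 1.20.0, featureCounts 1.5.0-p3, HISAT2 2.0.5 and fastp; GRCm38 and mm10 are given as builds, without roles, strand or multiple-match settings. Genes with near-identical copies, such as processed pseudogenes of nuclear-encoded subunits, may therefore have lost or gained reads, and antisense overlaps were not separated.

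From these counts, 18336 genes passed edgeR's low-count filter and entered 1 fit of all 4 genotypes (edgeR 4.0.16, R 4.3.3; TMM scaling, robust quasi-likelihood F test, Benjamini-Hochberg adjustment over all genes at 0.05). Members were read from that fit. CPM values are TMM-scaled, and standard errors come from the F statistic. Profiles used log2 CPM with a prior count of 2. The steps were tested on simulated counts. Alternatives were RLE scaling, scaling without mitochondrial genes, 2 other filters, DESeq2 1.42.0, a fit of only 2 groups, the identifier letter or replicate number as a term, E libraries alone and each library left out in turn. Sequences came from GENCODE M21 (mitochondrial genes and copies) and RefSeq promoters. Members and gene lists were chosen with earlier results of these data known. Named genes were all mitochondrially encoded members, per complex and direction up to 3 nuclear-encoded members with the smallest adjusted p in DKO against WT and 2 in the others, the highest expressed, isoform families, and up to 3 of each list.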

Additional observations from a re-analysis of the deposited data

Results flagged for a closer look

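In 136 groups of 5 libraries, the highest or lowest library was compared with its nearest neighbour by Dixon's criterion, under which chance flags about 1 group in 20; 12 groups stood out, 9 of them through WT replicate 1. That library was lowest of WT for the share of counts on mitochondrially encoded subunits (2.08%, next 3.26%) and for mitochondrially encoded reads per nuclear-encoded read (3.09, next 4.14). It was also lowest for mt-Co1 (9530 CPM, next 13800), mt-Nd5 (2020, next 3460), mt-Nd4 (1740, next 3140), mt-Nd6 (629, next 925) and mt-Co3 (42.0, next 85.4). The same held for Cox7a2l (57.0 CPM, next 89.7) and Ndufa10 (96.1, next 111). The other isolated libraries were the highest of their groups: WT replicate 2 for Atp5l (80.0 CPM, next 57.3), Neu3KO replicate 2 for Cox4i1 (348 CPM, next 318) and Neu3KO replicate 4 for mt-Nd3 (50 CPM, next 38.4).

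For 2 members the change that went with losing Neu3 differed with and without Glb1, by the interaction test: Atp5d at -0.26 and Cox7b at -0.33 on the log2 scale.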

How the results depend on the processing

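Counts of calls below stand beside the share of all genes called in the same fit. In DKO against WT that share was 28.7% with scaling without the mitochondrial genome, 14.2% without a filter, 27.3% with the groups alone, 18.3% with the letter and 12.9% among E libraries. In Glb1KO against WT it was 2.63% without a filter, 1.72% with the letter and 1.61% among E libraries. In DKO against Glb1KO it was 15.5% with RLE scaling, 15.4% without the mitochondrial genome, 17.8% with a mean of at least 1 CPM, 16.3% with DESeq2 and with the groups alone, 7.95% without a filter, 6.56% with the letter and 4.48% among E libraries. Against Neu3KO it was 23.3% with DESeq2, 24.0% with the groups alone and 4.39% among E libraries. For the interaction it was 4.01% without a filter, 6.06% with the letter, 0.911% among E libraries and 8.34% with DESeq2, and for Neu3KO against WT 0.0708% without a filter. Nuclear-encoded members lower in DKO than in WT numbered 1, in place of 3, with scaling without the mitochondrial genome, no filter on low counts, the compared groups alone or the identifier letter as a term, and 0 among E libraries; higher ones numbered 3 with the letter and 2 among E libraries, in place of 11. In Glb1KO against WT, higher members numbered 17 without a filter, in place of 6, and 0 with the letter or among E libraries. Neu3KO had 1 higher without a filter. In DKO against Glb1KO, 1 member was higher with RLE scaling, scaling without the mitochondrial genome, a mean of at least 1 CPM or DESeq2, and 3 with the groups alone; lower ones numbered 8 with the groups alone and 0 with the letter or among E libraries. Mitochondrially encoded members lower in that comparison numbered 1 without a filter, with DESeq2 or with the groups alone. Against Neu3KO they numbered 2 with DESeq2, 3 with the groups alone and 0 among E libraries, where nuclear-encoded calls were 0 lower and 0 higher. Nuclear-encoded interaction calls numbered 8 without a filter, 1 with the letter and 0 among E libraries, and mitochondrially encoded ones 3 with DESeq2. Among E libraries the mitochondrially encoded medians were 0.018 against Glb1KO, 0.049 against Neu3KO and -0.096 for the interaction. The cause of these shifts was not tested. With each library left out in turn, nuclear-encoded members in DKO against WT ranged from 1 to 6 lower and 7 to 20 higher, and mitochondrially encoded ones from 0 to 1 lower. In Glb1KO against WT 2 to 14 were higher. In DKO against Glb1KO 3 to 8 nuclear-encoded members were lower, 0 to 3 higher, and 0 to 2 mitochondrially encoded ones lower. Against Neu3KO 1 to 4 nuclear-encoded members were higher and 0 to 4 mitochondrially encoded ones lower. The interaction gave 0 to 8 nuclear-encoded and 0 to 1 mitochondrially encoded members lower. With 1 library left out, 23.9 to 28.8% of all genes were called in DKO against WT and 2.96 to 4.42% in Glb1KO against WT. In DKO the share was 12.4 to 17.1% against Glb1KO and 20.4 to 26.6% against Neu3KO, and for the interaction 5.28 to 7.11%. Signs turned in DKO against WT among E libraries for mt-Co1 (0.086), mt-Nd4 (0.16), mt-Nd2 (0.016) and mt-Nd3 (0.0081), and for mt-Nd4 with the letter (0.046). With 1 library left out, values crossed 0 for mt-Nd4 (-0.15 to 0.045), mt-Cytb (-0.057 to 0.13), mt-Nd1 (-0.14 to 0.091), mt-Co2 (-0.11 to 0.13), mt-Co3 (-0.028 to 0.19), mt-Atp6 (-0.021 to 0.23) and mt-Nd4l (-0.13 to 0.10). With the replicate number as a block, members lower in DKO than in WT numbered 1, mitochondrially encoded ones lower than in Neu3KO 0 and interaction calls 1, while 11 were higher in DKO than in WT, beside 28.4%, 24.3% and 6.20% of all genes in these comparisons. The numbers did not pair libraries: over 30 same-numbered pairs r ran from -0.13 to 0.06, and 5 libraries correlated best with their own number. Depth limits the rarest members, mt-Atp8 and the muscle and testis isoforms.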

Other observations

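Transfer RNAs of the mitochondrial genome, which lie between the subunit genes, were not described above. Of 15 tested in DKO against WT, 3 were lower and 1 higher, beside 15.1% and 14.0% of all genes, with mt-Ti at -1.23 (SE 0.36), mt-Th at -0.55 (SE 0.18), mt-Tq at -1.12 (SE 0.39) and mt-Tn at 0.48 (SE 0.17). Against Glb1KO 6 of 15 were lower in DKO, with a median of -0.54, beside 7.29% of all genes called lower. Against Neu3KO 7 of 15 were lower, with a median of -0.52, beside 12.8%. Together these RNAs took 0.0141 and 0.0151% of counts in DKO libraries starting with E, and 0.0115 to 0.0127% in those with W. In Glb1KO they took 0.0140 and 0.0149% with E and 0.0159 to 0.0182% with L. In Neu3KO they took 0.0146% with E and 0.0128 to 0.0173% with W. The transfer RNA calls were not examined with the letter as a term or with libraries left out. Levels were low, with mt-Ti at a mean of 1.19 CPM and mt-Tn at 10.5 CPM over the libraries. Both mitochondrial ribosomal RNAs did not pass in DKO against WT, with a median of 0.06, and took 0.482 ± 0.0877% of counts in WT and 0.528 ± 0.0312% in DKO (SD, n = 5 each).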
